A study of Mus musculus with 6 samples.

Results

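The 10 olfactory transduction genes Omp, Gng13, Gnal, Adcy3, Cnga2, Cnga4, Ano2, Stoml3, Rtp1 and Ric8b were examined in single-cell transcriptomes of the mouse olfactory bulb. They were chosen by name as components of odor signaling or of its cilium, and all 10 were present among the 18560 genes of the count table. Cells came from 6 droplet libraries of C57BL/6NJ mice aged 14 weeks, each made from 3 pooled mice, with 2 libraries per condition. The naris occluded libraries came from bulbs deprived of odor input by closing 1 nostril for 6 weeks, and the olfactory trained libraries from mice that learned odor discrimination over 6 weeks. The labels give the control libraries no manipulation, whereas the study's text speaks both of naive mice and of the open side of occluded mice, so the origin of the control tissue was not settled. Replicate 1 libraries were from males and replicate 2 libraries from females, and Y-linked and Xist UMIs matched this in 3 of 3 and 3 of 3 libraries. A UMI (unique molecular identifier) counts 1 captured mRNA molecule, and levels are given as UMIs per 1000000 UMIs of a population (CPM), as mean ± SD over the 6 libraries.

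In an olfactory sensory neuron, an odorant receptor on the cilium activates the G protein alpha subunit Gnal, which works with the beta subunit Gnb1 and the gamma subunit Gng13. Gnal stimulates the adenylyl cyclase Adcy3, cyclic AMP opens the channel built from Cnga2, Cnga4 and Cngb1, and the entering calcium opens the chloride channel Ano2. Ric8b assists the folding and activation of Gnal, Rtp1 brings odorant receptors to the cell surface, Stoml3 is a stomatin-family protein of the cilium, and Omp is a cytoplasmic protein of mature sensory neurons.

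The cell bodies of these neurons lie in the olfactory epithelium and their axons end in the glomeruli of the bulb. By the study's methods, the dissected bulbs carried some cells of the adjoining epithelium. The deposited annotation names 1 of 18 neuronal clusters n01-OSNs, and this cluster held 1200 of 21746 neurons, between 113 and 288 cells per library. The other 17 neuronal clusters held 20546 cells, and 22 nonneuronal clusters of the whole-bulb annotation held 28925 cells. Libraries held 6705 to 10570 annotated cells and 11841160 to 17065083 UMIs.

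The identity of n01-OSNs was checked against marker genes. Of 12 markers of mature sensory neurons, 6 had their highest mean level among the 18 neuronal clusters in n01-OSNs, led by S100a5, a calcium-binding protein of these neurons, at 20491 ± 6988 CPM. Transcription factors of the lineage were sparse, with Ebf2 at 7.31 ± 10.3 CPM, Lhx2 at 10.2 ± 8.17 CPM and Emx2 at 3.77 ± 3.90 CPM. Of 4 epithelial markers, Cyp2g1, Cyp2f2 and Krt18 had no UMI in n01-OSNs and Cbr2 had 1. Of 3 genes of immature sensory neurons, Gap43 was at 62.5 ± 29.5 CPM against 119 ± 15.7 CPM in the other neurons, Gng8 was at 54.0 ± 32.4 CPM against 7.2 ± 3.55 CPM and Trib3 had no UMI. Markers of other cell types were present in n01-OSNs, with summed levels over the libraries of 1264 to 2418 CPM for 5 ensheathing cell markers, 288 to 853 CPM for 4 interneuron markers, 431 to 543 CPM for 3 astrocyte markers, 67.6 to 160 CPM for 4 mitral and tufted cell markers and 49.7 to 169 CPM for 3 microglia markers. Their part in the results was not tested. Mitochondrial genes took 40.6% of the UMIs of n01-OSNs, against 12.2% in the other neurons and 10.3% in nonneuronal cells, and the median depth of an n01-OSNs cell was 808.5 UMIs.

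EBF transcription factors are known regulators of genes of mature sensory neurons, and promoters of members are shown for the EBF core that they hold or lack. RefSeq promoter windows of GRCm38.p6 spanned 250 bases before to 50 after the start site, 300 in all. For 7 members, 11 windows were searched on both strands for the EBF core CCCNNGGG, which reads the same on both strands. Windows of Omp, Gnal and Rtp1 were not analysed here. A match was found in 4 of the 11 windows, each of a different member, and 13.7% of all 32851 windows held one. The homeodomain core TAATTA, found in 5.29% of all windows, was in none of the 11. The windows with a match and that of Stoml3, a member high in n01-OSNs without a match, read 5′ to 3′ on the plus strand as follows, with the matches in capitals.
Gng13, chr17:25716922-25717221: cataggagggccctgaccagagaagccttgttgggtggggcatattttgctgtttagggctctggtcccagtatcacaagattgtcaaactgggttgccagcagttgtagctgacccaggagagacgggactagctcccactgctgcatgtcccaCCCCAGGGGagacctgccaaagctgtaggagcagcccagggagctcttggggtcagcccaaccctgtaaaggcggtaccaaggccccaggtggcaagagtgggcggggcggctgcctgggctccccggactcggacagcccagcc
Cnga2, chrX:71991599-71991898: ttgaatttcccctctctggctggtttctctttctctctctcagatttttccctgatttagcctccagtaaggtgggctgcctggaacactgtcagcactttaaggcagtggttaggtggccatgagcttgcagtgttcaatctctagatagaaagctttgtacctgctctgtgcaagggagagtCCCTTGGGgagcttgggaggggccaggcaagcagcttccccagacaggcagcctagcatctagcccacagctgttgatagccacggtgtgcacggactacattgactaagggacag
Cnga4, chr7:105404318-105404617: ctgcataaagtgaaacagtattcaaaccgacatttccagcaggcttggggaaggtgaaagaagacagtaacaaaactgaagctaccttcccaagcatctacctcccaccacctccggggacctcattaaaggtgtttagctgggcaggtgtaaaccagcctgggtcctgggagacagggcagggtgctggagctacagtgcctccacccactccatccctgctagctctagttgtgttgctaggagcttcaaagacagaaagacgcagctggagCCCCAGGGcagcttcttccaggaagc
Ano2, chr6:125710938-125711237: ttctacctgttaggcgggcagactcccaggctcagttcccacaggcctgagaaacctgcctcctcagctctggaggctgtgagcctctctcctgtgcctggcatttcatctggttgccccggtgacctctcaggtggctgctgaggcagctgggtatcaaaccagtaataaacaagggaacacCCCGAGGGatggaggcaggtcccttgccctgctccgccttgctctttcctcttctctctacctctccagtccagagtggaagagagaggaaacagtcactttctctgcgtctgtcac
Stoml3, chr3:53488457-53488756: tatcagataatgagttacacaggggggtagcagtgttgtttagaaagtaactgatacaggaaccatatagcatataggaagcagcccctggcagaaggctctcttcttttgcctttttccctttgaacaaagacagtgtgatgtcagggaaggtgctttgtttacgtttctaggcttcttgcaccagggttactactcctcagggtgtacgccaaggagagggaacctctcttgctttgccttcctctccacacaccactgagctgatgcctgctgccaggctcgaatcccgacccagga
In Gng13 a pair of overlapping matches began 95 bases before the start site, in Cnga2 the match began 66 bases and in the Ano2 window shown 67 bases before it, and in Cnga4 it began 24 bases after it. A match is a run of letters and not a measured binding site.

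Omp, Gng13 and Stoml3 were far higher in n01-OSNs than in any other cluster, in each of the 6 libraries. Omp was at 780 and 761 CPM in the control libraries, 820 and 703 CPM in the naris occluded libraries and 594 and 696 CPM in the olfactory trained libraries. Its mean in n01-OSNs was 726 ± 79.9 CPM, against 26.4 ± 8.78 CPM in the other neurons and 21.0 ± 5.88 CPM in nonneuronal cells. The ranges did not overlap, since the lowest n01-OSNs library stood above the highest library of both other populations (35.2 and 29.9 CPM).

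Gng13 was the most counted member, with 65223 UMIs against 2905 for Omp and 1735 for Stoml3. In n01-OSNs it was at 17203 and 18839 CPM in the controls, 18987 and 24941 CPM with occlusion and 13548 and 16730 CPM with training. Its mean of 18375 ± 3771 CPM stood beside 627 ± 211 CPM in the other neurons and 426 ± 110 CPM in nonneuronal cells. In n01-OSNs, 99.0% of cells held a Gng13 UMI, with 17.8 UMIs per cell.

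Stoml3 was at 417 ± 64.4 CPM in n01-OSNs, with libraries between 334 and 527 CPM. It was at 16.7 ± 3.71 CPM in the other neurons and 12.5 ± 3.18 CPM in nonneuronal cells. Because the clusters were built from the same transcriptomes, these differences between clusters are a description and were not tested. UMIs of these libraries are not scaled by transcript length, so that levels were compared between cells and not between genes.

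**Figure D1:**
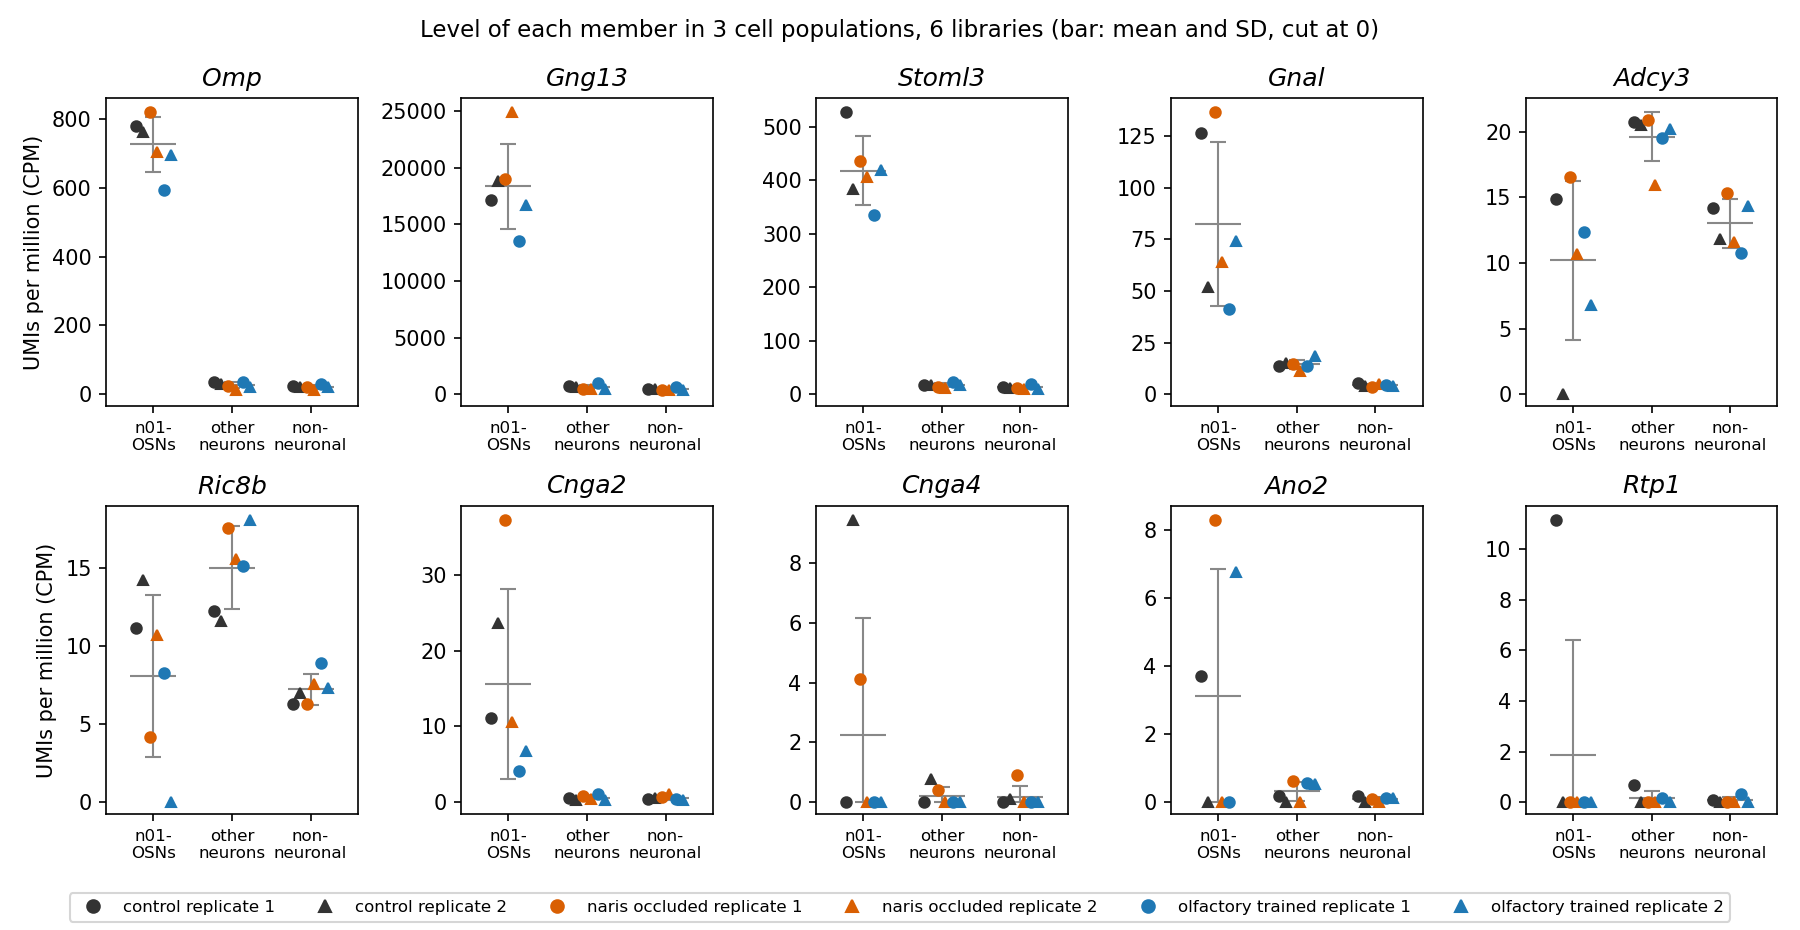
Level in CPM of each of the 10 members in n01-OSNs, the other 17 neuronal clusters and the 22 nonneuronal clusters, 1 point per library, with the mean and SD as a gray bar. Omp, Gng13 and Stoml3 stand high in every n01-OSNs library, whereas Adcy3 and Ric8b have a higher mean in the other neurons (19.6 and 15.0 CPM) than in n01-OSNs (10.2 and 8.06 CPM).

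The channel and trafficking genes were barely sampled. Cnga2 had 20 UMIs in n01-OSNs, of which 3 and 5 were in the control libraries, 9 and 1 in the occluded and 1 and 1 in the trained libraries. This was 15.6 ± 12.6 CPM, against 0.571 ± 0.336 CPM in the other neurons and 0.567 ± 0.272 CPM in nonneuronal cells. The lowest n01-OSNs library (4.12 CPM) was above the highest library of the other neurons (1.10 CPM).

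Cnga4 had 3 UMIs in n01-OSNs, Ano2 had 4 and Rtp1 had 3. Pooled over libraries these were 2.49 CPM for Cnga4 with an exact 95% Poisson interval of 0.513 to 7.27, 3.32 CPM for Ano2 (0.903 to 8.49), and 2.49 CPM for Rtp1 (0.513 to 7.27). The intervals cover counting error alone. All 3 Rtp1 UMIs came from control replicate 1. In the other neurons Cnga4 was at 0.178 CPM, Ano2 at 0.320 CPM and Rtp1 at 0.178 CPM, from 5, 9 and 5 UMIs. Of the 18 neuronal clusters, 14 held no UMI of Cnga4, 14 none of Rtp1 and 10 none of Ano2, and a count of 0 allows a level of up to 0.450 CPM in n04-Immature and 19.8 CPM in n15-M/TC-1 (3 counts), both at 0 for the 3 genes.

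For some sparse members a large share of the UMIs came from few cells. Each of 3 cells of n01-OSNs held UMIs of 7 or more members, and no annotated cell outside n01-OSNs did. These cells were singled out after their values were seen. The first, from control replicate 1, had 18 Omp, 32 Gng13, 7 Gnal, 2 Adcy3, 1 Cnga2, 19 Stoml3 and 1 Rtp1 among 2910 UMIs. The second, from the same library, had 9 Omp, 21 Gng13, 8 Gnal, 1 Adcy3, 1 Cnga2, 1 Ano2, 3 Stoml3, 1 Rtp1 and 2 Ric8b among 1827 UMIs. The third, from naris occluded replicate 1, had 30 Omp, 47 Gng13, 4 Gnal, 2 Adcy3, 4 Cnga2, 1 Ano2 and 23 Stoml3 among 4546 UMIs.

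Mitochondrial genes took 6.91%, 9.69% and 7.22% of the UMIs of these cells, and 1532, 1044 and 2116 genes were detected in them. The remaining 1197 cells of n01-OSNs had a median of 38.98% mitochondrial UMIs and 326 genes. The 3 cells supplied 19 of the 105 Gnal UMIs of n01-OSNs, 5 of 13 for Adcy3, 6 of 20 for Cnga2, 2 of 4 for Ano2, 2 of 3 for Rtp1, 2 of 10 for Ric8b and 0 of 3 for Cnga4. By contrast, they supplied 100 of 21304 Gng13 UMIs. In CPM, Gnal was at 2047 in these cells and 71.8 in the rest, Omp at 6140 and 689, and Stoml3 at 4848 and 388, values that the choice of cells by member UMIs favors. Gng13 was lower in them (10772) than in the rest (17709). Without them the n01-OSNs means became 71.0 ± 28.1 CPM for Gnal, 7.001 ± 4.55 CPM for Adcy3 and 0.630 ± 1.54 CPM for Rtp1, the last from 1 UMI. In the whole-bulb annotation the first and second cell were in cluster N15 and the third in N5. Whether the 3 cells differ in kind from the others was not tested.

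Within n01-OSNs, 5 cells held no UMI of any member, 511 held UMIs of 1 member, 451 of 2, 192 of 3, 36 of 4, 2 of 5 and 3 of 7 or more. An Omp UMI was found in 41.9% of cells and a Stoml3 UMI in 28.8%. Depth moved with detection, as cells with Omp had a median of 934 UMIs and cells without it 749. The whole-bulb annotation split the cluster into 917 cells in its cluster N5, 249 in N6 and 34 elsewhere. The N5 cells were at 759 CPM for Omp and 19172 CPM for Gng13, and the N6 cells at 438 CPM and 10530 CPM. N5 also held 171 cells of the cluster n13-AstrocyteLike, at 5454 CPM for Gng13, and N6 held 2676, at 2126 CPM.

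Gng13 UMIs were not limited to n01-OSNs. Outside it they were found in every cluster, in 46.3% of the other neurons and 44.7% of nonneuronal cells. Even in the cluster named RBCs (red blood cells), 45.2% of cells held a Gng13 UMI at a median depth of 3894 UMIs per cell. When each cell was thinned to 500 UMIs, which no cell fell short of, the share was 97.8% in n01-OSNs, 28.3% in the other neurons, 20.7% in nonneuronal cells and 11.4% in RBCs.

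Counted per cell, Gng13 outside n01-OSNs was nearly flat. Its UMIs per cell ranged from 0.593 in n09-GC-3 to 1.62 in n13-AstrocyteLike over 39 clusters, with a median of 0.780, and in 35 of the 39 it was between 0.5 and 1. In CPM, the same clusters differed 12.3-fold, and the shallower a cluster the higher its Gng13 CPM (Spearman's rho −0.93 over 39 clusters, which share libraries and differ in depth). The median depth ran from 656 UMIs in n13-AstrocyteLike, the cluster highest in Gng13 after n01-OSNs at 2122 ± 345 CPM, to 3894 UMIs in RBCs, the lowest at 172 ± 89.0 CPM.

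**Figure D2:**
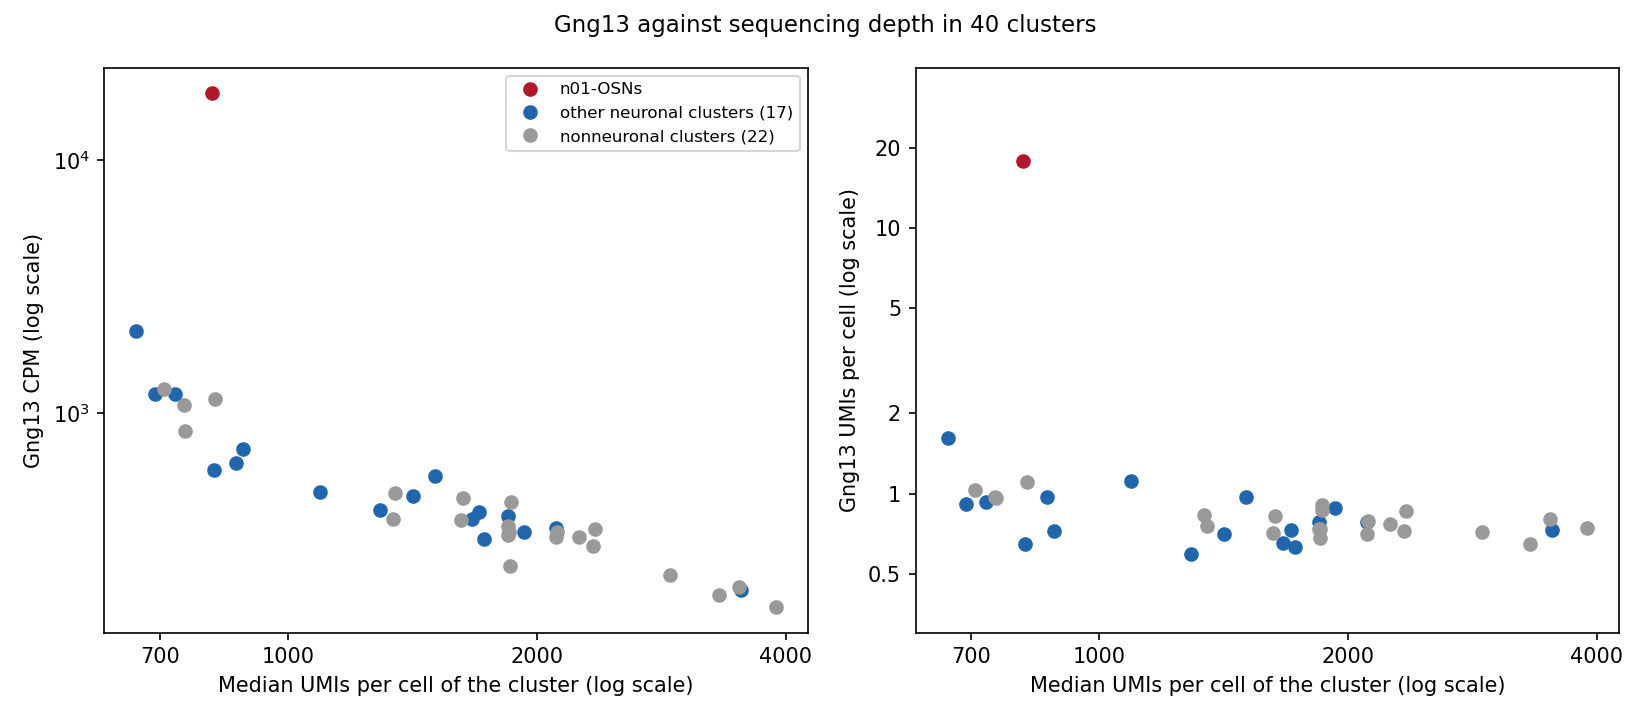
Gng13 in 40 clusters against the clusters' median UMIs per cell, as CPM (left) and as UMIs per cell (right), all on log scales. Outside n01-OSNs the CPM falls with depth while the UMIs per cell stay between 0.593 and 1.62, against 17.8 in n01-OSNs.

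The ratio of Gng13 to S100a5 was computed in each population of each library. Where the UMIs of both genes outside n01-OSNs came from was not tested. In n01-OSNs of the control libraries there were 61.4 and 73.7 Gng13 UMIs per 100 S100a5 UMIs. In the naris occluded libraries there were 126 and 249, and in the olfactory trained libraries 70.3 and 66.8. Both occluded libraries thus stood above all 4 others.

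The occluded libraries were the highest in the other populations too. In nonneuronal cells there were 65.8 and 62.3 Gng13 UMIs per 100 S100a5 UMIs in the controls, 132 and 266 with occlusion and 76.3 and 80.3 with training. In the other neurons the values were 66.1 and 60.6, 126 and 298, and 78.6 and 82.5. In both, naris occluded replicate 2 stood above replicate 1 as in n01-OSNs, whereas the order of the 4 other libraries was not kept, control replicate 2 being the highest of them in n01-OSNs and the lowest in nonneuronal cells. With 2 libraries against 2, the smallest p that an exact two-sided permutation test allows is 0.333, so that no p is given for this ratio. Over the 39 clusters, the ratio relative to that in n01-OSNs of the same library was between 0.909 in OPC and 1.64 in n14-GC-7, with a median of 1.07, and it was within 20% of 1 in 31.

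**Figure D3:**
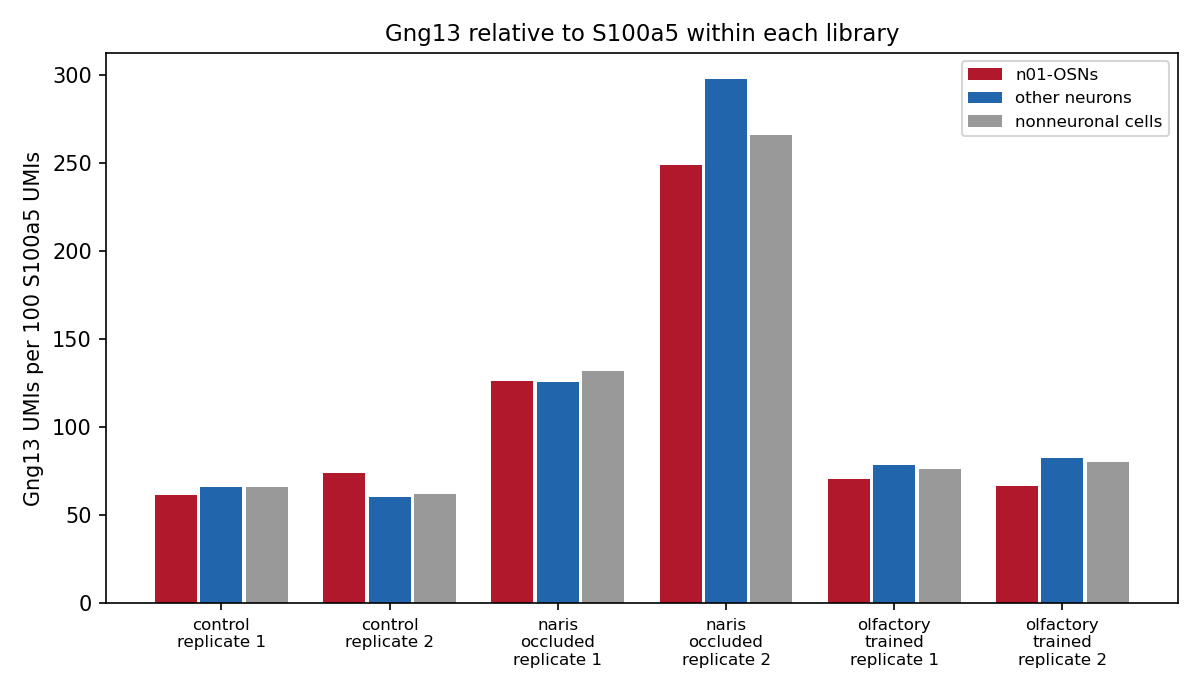
Gng13 UMIs per 100 S100a5 UMIs in each of the 6 libraries, for n01-OSNs, the other neurons and nonneuronal cells. The 3 bars of a library stand close together, and the naris occluded libraries are the highest in each population (126 and 249 in n01-OSNs).

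The denominator moved with occlusion. S100a5, which is known to depend on odor activity, fell in n01-OSNs from 28031 and 25567 CPM in the controls to 15027 and 10026 CPM with occlusion (log2 fold change −1.01 ± 0.19 SE, adjusted p = 0.0041, edgeR quasi-likelihood test with Benjamini-Hochberg adjustment). It fell by the same test in n03-GC-1 (−1.73), n04-Immature (−1.99) and n07-GC-2 (−1.77), populations of bulb interneurons and immature neurons by their deposited names. In nonneuronal cells S100a5 was at 708 and 674 CPM in the controls and 259 and 137 CPM with occlusion, so that these groups did not overlap. The log2 fold change there was −1.81 ± 0.32 SE (adjusted p = 0.681, edgeR quasi-likelihood test without a replicate block). In n05-PGC-2 it was −0.68 ± 0.42 SE (adjusted p = 0.998, edgeR), with 529 and 495 CPM in the controls and 611 and 33.1 CPM with occlusion, so that the groups overlapped.

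For each member a level was computed that every cluster would have if all its UMIs of the member came from sensory neuron RNA, an assumption that was not tested. It was the member's CPM in n01-OSNs of the same library times the ratio of the summed CPM of sensory neuron tracer genes (Omp, Stoml3, Cnga2, Cnga4, Rtp1, S100a5, Cidea, Kirrel2, Umodl1 and Cngb1, without the predicted gene) between the cluster and n01-OSNs. S100a5 supplied nearly all of this sum. Cidea did not have its highest mean among the neuronal clusters in n01-OSNs. The ratio was 3.54 ± 1.78% in the other neurons and 2.45 ± 1.04% in nonneuronal cells, from 1.07% in RBCs to 11.3% in n13-AstrocyteLike. A prediction was made for the 7 members with at least 10 UMIs in n01-OSNs, which left out Cnga4, Ano2 and Rtp1.

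Gng13 lay near its prediction, which, resting almost wholly on S100a5, restates the ratio of both genes given above. In the other neurons 627 CPM was observed and 609 CPM predicted, a ratio of 1.03, and in nonneuronal cells 426 CPM was observed and 426 CPM predicted, a ratio of 1.00. Cluster by cluster the ratio ran from 0.857 in n09-GC-3 to 1.27 in n14-GC-7 among neurons and from 0.883 in Mono to 1.23 in Mes2 among nonneuronal clusters. In no cluster did all 6 libraries exceed the prediction, and the source of these UMIs was not tested. With Omp alone as tracer the ratio was 0.979 in the other neurons and 0.832 in nonneuronal cells, and without S100a5 it was 0.843 and 0.650. Why the ratio depended on the tracer was not tested.

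For Omp and Stoml3 the ratio was nearer to 1 than for Gnal, and its direction depended on the tracer. For Omp the ratio was 1.05 in the other neurons and 1.22 in nonneuronal cells, and for Stoml3 it was 1.17 and 1.26. For Cnga2, from 17 and 32 UMIs, it was 1.13 and 1.65. In nonneuronal cells Omp and Stoml3 were above the prediction in 6 of 6 libraries, from 1.00 to 1.74 times for Omp and from 1.01 to 1.77 times for Stoml3. Without S100a5 as tracer, Omp was at 0.730 times its prediction in the other neurons and 0.598 times in nonneuronal cells, and Stoml3 at 0.944 and 0.752 times, with 0 of 6 nonneuronal libraries above for both. With a single tracer, Omp was at 0.902 and 0.959 times (Stoml3 as tracer) and Stoml3 at 1.10 and 1.03 times (Omp as tracer). Neither population passed, for these 3 members, the 2-fold line that was set for calling a member above its prediction. Single clusters passed it, namely 1 of 17 neuronal and 0 of 22 nonneuronal clusters for Omp, 0 and 2 for Stoml3 and 0 and 6 for Cnga2. The Omp cluster, n10-GC-4, had 15 Omp UMIs, at 23.3 ± 39.1 CPM, and was above its prediction in 3 of 6 libraries. Its single libraries ran from 0 to 8.30 times the prediction. For Stoml3, Mφ was above in 6 libraries and RBCs in 4. The Cnga2 clusters held 1 to 5 UMIs each.

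Gnal, Adcy3 and Ric8b exceeded their predictions by more than 2 times in the mean of the other neurons and of nonneuronal cells, and all 6 libraries were above the prediction itself. The ratio was 5.35 for Gnal, 54.5 for Adcy3 and 48.2 for Ric8b in the other neurons, and 2.38, 51.9 and 34.3 in nonneuronal cells. The predictions for Adcy3 and Ric8b rest on 13 and 10 UMIs in n01-OSNs and their sizes are therefore loose. In n01-OSNs, Adcy3 was at 0 in control replicate 2 and Ric8b at 0 in olfactory trained replicate 2. The prediction was 0 there, so that any UMI exceeded it. Gnal in nonneuronal cells was close to the line, with single libraries between 1.45 and 5.29 times the prediction and a ratio of 1.93 for Omp alone as tracer and 1.54 without S100a5.

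**Figure D4:**
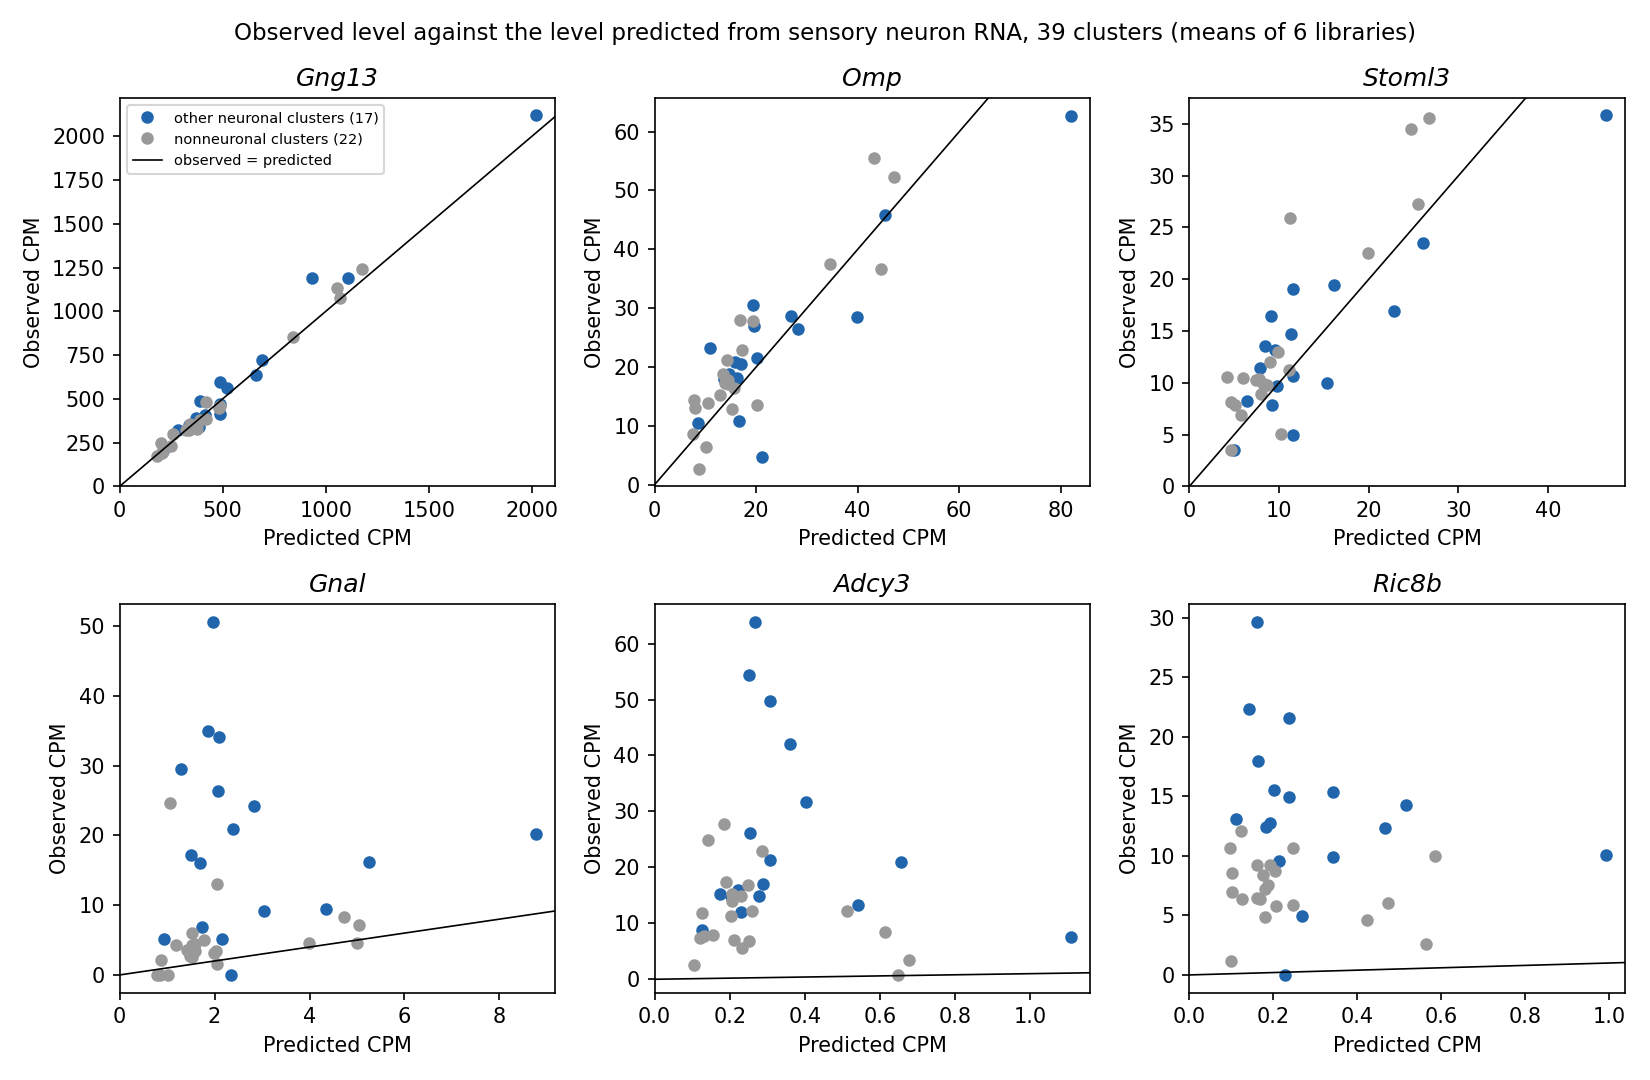
Observed CPM against the CPM predicted from sensory neuron tracers in 39 clusters (means of 6 libraries), with a line where both are equal. Gng13 lies along the line over its whole range, Omp and Stoml3 scatter around it, and most clusters lie above it for Gnal and nearly all for Adcy3 and Ric8b.

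Gnal was highest in n01-OSNs but was found widely in bulb neurons. In n01-OSNs it was at 126 and 52.0 CPM in the controls, 137 and 63.9 CPM with occlusion and 41.2 and 74.4 CPM with training, a mean of 82.4 ± 39.8 CPM. In n05-PGC-2, named as periglomerular cells, it was at 58.8, 56.3, 48.1, 46.3, 26.5 and 67.8 CPM in the same order, a mean of 50.6 ± 14.1 CPM. In CPM of all UMIs, the ranges of the 2 clusters overlapped, and n01-OSNs did not exceed n05-PGC-2 beyond the spread between libraries. Mitochondrial genes took 40.6% of these UMIs in n01-OSNs and 7.12% in n05-PGC-2, and levels without them were not computed.

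Next came n08-PGC-3 at 35.0 ± 18.1 CPM, n18-EPL-IN at 34.1 ± 46.0 CPM from 5 UMIs, and n10-GC-4 at 29.5 ± 24.8 CPM. None of these neighbors differed beyond its spread. In n04-Immature, with 3910 cells, Gnal was at 6.89 ± 1.62 CPM and its libraries (5.10 to 9.41 CPM) lay below all libraries of n05-PGC-2. The ratio to the prediction was over 2 in 16 of 17 neuronal clusters and highest in n05-PGC-2, at 25.8. All 6 libraries were above the prediction in 7 of the 17.

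Outside neurons, Gnal had its highest mean in OPC (oligodendrocyte precursors by name), which did not exceed Astro2, the next cluster (13.1 ± 12.7 CPM, 7 UMIs), beyond the spread between libraries. It was at 25.5, 24.5, 11.6, 43.2, 9.44 and 34.0 CPM there, a mean of 24.7 ± 12.9 CPM from 30 UMIs in 397 cells. This was 23.3 times the prediction, whereas the ratio passed 2 in 10 of 22 nonneuronal clusters. All 6 libraries were above the prediction in 3 of the 22. A Gnal UMI was found in 7.05% of OPC, at a median depth of 2901 UMIs, and in 0 of 219 RBCs at 3894 UMIs.

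In CPM of all UMIs, Adcy3 was lower in n01-OSNs than in much of the bulb. It was at 14.9 and 0 CPM in the controls, 16.6 and 10.7 CPM with occlusion and 12.4 and 6.76 CPM with training, a mean of 10.2 ± 6.05 CPM from 13 UMIs. Over 40 clusters n01-OSNs ranked 28th. Mitochondrial genes took 40.6% of the UMIs of n01-OSNs, 12.2% in the other neurons and 10.3% in nonneuronal cells. This share lowers the CPM of all other genes most in n01-OSNs, and ranks without mitochondrial UMIs were not computed. In n05-PGC-2 Adcy3 was at 80.2, 45.0, 68.7, 39.7, 58.3 and 33.9 CPM, and in n17-M/TC-3, named as mitral and tufted cells, at 52.4, 42.3, 45.7, 40.4, 38.8 and 33.0 CPM. Every library of both clusters stood above every library of n01-OSNs.

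The means of n18-EPL-IN (63.9 ± 60.2 CPM, 10 UMIs), n05-PGC-2 (54.3 ± 17.9 CPM, 54 UMIs), n15-M/TC-1 (49.7 ± 52.3 CPM, 7 UMIs) and n17-M/TC-3 (42.1 ± 6.56 CPM, 64 UMIs) did not differ from their neighbors in this order beyond the spread. The step from n17-M/TC-3 to n07-GC-2 (31.7 ± 7.21 CPM, 110 UMIs) exceeded it. Among nonneuronal clusters OEC1, named as olfactory ensheathing cells, led with 27.8 ± 10.1 CPM from 140 UMIs. In MicroG3 Adcy3 had 1 UMI among 818992, and there alone among the 22 nonneuronal clusters was its ratio to the prediction under 2.

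In CPM of all UMIs, Ric8b was likewise low in n01-OSNs among the neuronal clusters. It was at 8.06 ± 5.18 CPM there, from 10 UMIs, with libraries from 0 to 14.2 CPM. It was highest in n05-PGC-2 at 29.6 ± 23.7 CPM, followed by n10-GC-4, n09-GC-3 and n11-GC-5, and no step between neighbors among these exceeded the spread. The best counted clusters were n04-Immature at 15.5 ± 4.76 CPM from 106 UMIs and n11-GC-5 at 17.9 ± 4.71 CPM from 67 UMIs. It was at 15.0 ± 2.67 CPM over all other neurons and 7.21 ± 0.983 CPM in nonneuronal cells, and the ranges of these populations did not overlap (11.5 to 18.03 and 6.25 to 8.88 CPM).

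**Figure D5:**
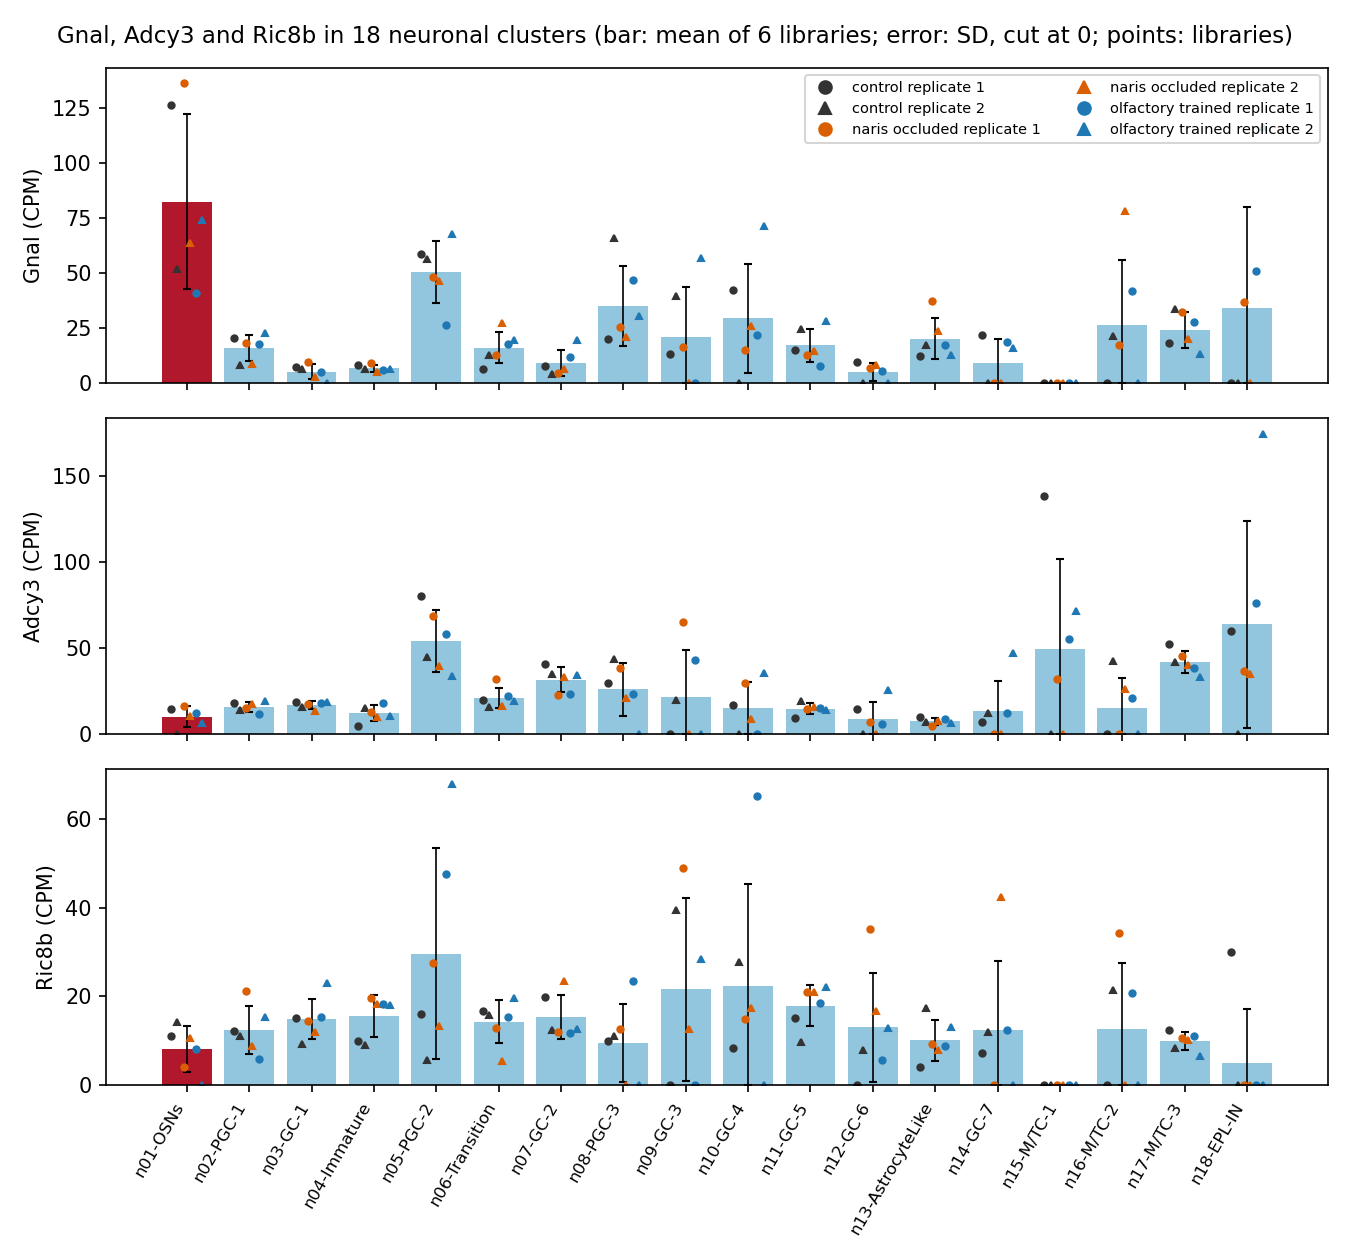
Gnal, Adcy3 and Ric8b in the 18 neuronal clusters, as the mean CPM of 6 libraries with the SD and 1 point per library. Gnal is highest in n01-OSNs (82.4 CPM) with n05-PGC-2 next (50.6 CPM), and for Adcy3 and Ric8b n01-OSNs is among the low clusters. Levels are in CPM of all UMIs, mitochondrial ones included.

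In all, 7 of the 10 members (Omp, Gng13, Gnal, Cnga2, Cnga4, Stoml3 and Rtp1) had their highest mean CPM of the 18 neuronal clusters in n01-OSNs, and the others were Adcy3, Ano2 and Ric8b. For 3 members (Omp, Gng13 and Stoml3) this held in each library. In CPM of all UMIs, n01-OSNs did not exceed the next cluster beyond the spread between libraries for Gnal, Cnga4 and Rtp1. Mitochondrial genes took 40.6% of the UMIs of n01-OSNs, and this order was not computed without them. Cnga4 and Rtp1 had 3 UMIs each in n01-OSNs. The share of all genes that are highest in n01-OSNs was not computed. Ano2 was highest in n09-GC-3 at 5.44 ± 13.3 CPM, from 2 UMIs.

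Other genes of the pathway and relatives of the members were ranked over the same 18 clusters, with no test of enrichment. Of 13 partners of the channel and of cyclic nucleotide handling, 4 were highest there among the 18 clusters, among them Cngb1 (8.66 ± 6.88 CPM), the receptor transporter Rtp2 (13.3 ± 6.52 CPM) and Gnb1 (1651 ± 322 CPM). Gnb1, the beta subunit paired with Gng13, was at 699 ± 73.5 CPM in the other neurons. Slc24a4, the sodium-calcium exchanger of the cilium, had 2 UMIs in n01-OSNs. Of the other 8 G alpha genes, 9 G gamma genes and 7 adenylyl cyclases, 0, 0 and 0 were highest in n01-OSNs, and Gng10, Adcy7 and Adcy9 had no UMI there. Gng8, at 54.0 ± 32.4 CPM in n01-OSNs, was exceeded in n10-GC-4 alone, at 60.9 ± 149 CPM. All 43 Gng8 UMIs of n10-GC-4 came from control replicate 1. Gnas, the G alpha gene closest to Gnal, was at 199 ± 28.6 CPM in n01-OSNs and 623 ± 50.3 CPM in the other neurons.

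Of 12 paralogs of other members in the table, Stom, a relative of Stoml3, was the 1 highest in n01-OSNs (105 ± 38.9 CPM against 8.59 ± 1.76 CPM in the other neurons). Odorant receptors were counted for 39 genes, of which 22 had a UMI in n01-OSNs, 146 UMIs in all. A receptor UMI was found in 60 of 1200 cells. The other annotated cells held 1080 receptor UMIs, of which Olfr32 supplied 406. The populations differ in size, as n01-OSNs held 1206610 UMIs of all genes. The other neurons had 206 receptor UMIs among 28138531, and nonneuronal cells 850 among 55368704.

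Genes whose pattern over the 40 clusters was most like that of 4 members were found by Pearson's r of log2(CPM + 1) among genes reaching 50 CPM in a cluster. For Gng13 these were S100a5 (r = 0.991), Acbd7 (0.931) and mt-Nd5 (0.898), and for Omp they were Acbd7 (0.899), 1700012B09Rik (0.889) and S100a5 (0.884). For Gnal they were Usmg5 (0.774), Eef1a2 (0.767) and Brsk1 (0.766), and for Ric8b Vps26b (0.821), Bag4 (0.818) and Tspyl1 (0.794). All clusters share the same 6 libraries and differ in depth, and the values are a description.

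Whether odor deprivation or training altered the members was asked in n01-OSNs with UMIs summed per library, by the edgeR quasi-likelihood test over 1741 genes. Of the 10 members 4 passed the filter on low counts, Omp, Gng13, Gnal and Stoml3, and 0 were called at an adjusted p under 0.05 in any of the 3 comparisons. The share of all genes called was 0.287% for occluded against control, 0% for trained against control and 0.0574% for trained against occluded. At an unadjusted p under 0.05 there were 0, 0 and 2 members, and 86, 84 and 168 genes. DESeq2 called 0 members in each comparison too. In data simulated with the same dispersion for every gene, 46.2% of genes with a true 2-fold change were recovered for occluded against control. With a 4-fold change it was 89.2%. These are averages over genes and do not give the recovery for the 4 members.

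For Gng13 the log2 fold change against control was 0.36 ± 0.18 SE for occluded (adjusted p = 0.929) and −0.29 ± 0.18 SE for trained (adjusted p = 0.944, edgeR quasi-likelihood test). Between the manipulations, all trained libraries (13548 and 16730 CPM) lay below all occluded ones (18987 and 24941 CPM). The share of all genes separated in this way is not given. The log2 fold change was −0.65 ± 0.18 SE with an adjusted p of 0.114 in edgeR. With the replicate number, which marks the sex of the pool, as a block it was −0.66 with an adjusted p of 0.0165 in edgeR, past the threshold. Without olfactory trained replicate 2 it became −0.89, with an adjusted p of 7.38e-05 in edgeR, so that leaving out 1 library changed the call. Over all 6 libraries left out in turn it was between −0.89 and −0.40.

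For Omp the log2 fold change was 0.08 ± 0.22 SE with occlusion and −0.31 ± 0.22 SE with training, and for Stoml3 it was −0.03 ± 0.25 SE and −0.34 ± 0.25 SE. For Gnal it was 0.38 ± 0.38 SE and −0.82 ± 0.43 SE, and −1.20 ± 0.44 SE for trained against occluded (adjusted p = 0.312, edgeR). The median over the 4 members was 0.22 for occluded and −0.33 for trained, against −0.0045 and −0.014 over all genes tested. The comparisons share the control libraries. The number of n01-OSNs cells was lowest in naris occluded replicate 2 (113 cells, 93860 UMIs).

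In bulb cells the same question was asked in n03-GC-1, n04-Immature, n05-PGC-2, n07-GC-2 and nonneuronal cells, where 2, 5, 2, 5 and 6 members passed the filter. Again 0 members were called in each comparison by the edgeR quasi-likelihood test. The share of all genes called was 0.0715% and 0.0143% in n03-GC-1 for occlusion and training, 0.107% and 0% in n04-Immature, 0% and 0% in n05-PGC-2, 0.0122% and 0.0608% in n07-GC-2 and 0% and 0% in nonneuronal cells. Over all 13 comparisons 52 member values were tested, 0 were called and 6 had an unadjusted p under 0.05. Of these, 2 were the n01-OSNs values for trained against occluded given above. In n04-Immature there were 2 of 5 members for occlusion and 1 of 5 for training, against 410 and 489 of 9312 genes. In n07-GC-2 there was 1 of 5 for occlusion, against 361 of 8217 genes. Cnga2, Cnga4, Ano2 and Rtp1 never passed the filter. Of 373 values of the other pathway genes and paralogs over the same comparisons, 0 were called.

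Ric8b in n04-Immature came closest to a separation by condition among bulb cells. It was at 9.93 and 8.97 CPM in the controls, 19.7 and 18.2 CPM with occlusion and 18.4 and 18.1 CPM with training, so that both controls lay below the other libraries. This order was picked out after the values were seen, and the share of all genes that have it is not given. The log2 fold changes were 0.96 ± 0.37 SE and 0.92 ± 0.38 SE, with adjusted p-values of 1.00 and 0.939 (edgeR quasi-likelihood test). In n05-PGC-2, Adcy3 differed from control by −0.23 ± 0.54 SE with occlusion and −0.38 ± 0.55 SE with training, within the spread of its libraries.

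Omp in nonneuronal cells was at 23.3 and 20.4 CPM in the controls, 19.8 and 11.7 CPM with occlusion and 29.9 and 21.0 CPM with training. Its log2 fold change was −0.48 ± 0.24 SE with occlusion and 0.23 ± 0.23 SE with training (adjusted p = 1.00 and 0.893, edgeR). Gng13 there was at 466 and 420, 342 and 366, and 627 and 337 CPM, with log2 fold changes of −0.33 ± 0.22 SE and 0.13 ± 0.22 SE.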

How the data were processed

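Libraries were made by the authors with 10x Genomics droplets, aligned and counted with Cell Ranger 2.0.0 (mm10) and clustered with Seurat 2.2.1, per the labels and the study's methods, which kept cells with at least 200 genes and removed doublets. The deposited values used here are raw UMI counts for 18560 genes in 52549 barcodes. The deposited annotations gave cluster and library for 51426 cells, with the trained libraries' name starts exchanged relative to the count table. A barcode sequence was shared with another library in 5.90% of cells. The members and gene lists were chosen with earlier results of these data known. Named genes were the members, the fixed lists and 3 like genes each for Omp, Gng13, Gnal and Ric8b. Counts were summed per library and population and tested across all genes with edgeR 4.0.16 (glmQLFit and glmQLFTest, TMM, filterByExpr, Benjamini-Hochberg, 0.05). The 2 pools of a condition differed in sex and so held different mice, and nothing further is said on their independence. Alternatives were DESeq2 1.42.0, RLE scaling, no filter, other cells or tracers, and each library left out. Scripts were tested on simulated data. Marker lists lacked Trpc2, Sec14l3, Krt5 and Krt14, and paralogs Ric8a and Cnga3, which were not analysed here.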

Additional observations from a re-analysis of the deposited data

Results flagged for a closer look

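Barcodes that the deposited annotation leaves without a cluster, 1123 in number, entered no comparison but held UMIs of 6 members above the limit of 3 counts. They held 1411 Gng13, 58 Omp, 38 Stoml3, 67 Adcy3, 34 Ric8b and 23 Gnal UMIs. In CPM these were 467 for Gng13, 19.2 for Omp, 12.6 for Stoml3, 22.2 for Adcy3 and 7.62 for Gnal, at a median depth of 2327 UMIs, and thus near the values of annotated bulb cells. A further 755 neurons of the whole-bulb annotation, left out of the second one, were at 271 CPM for Gng13, 18.6 for Omp and 25.2 for Adcy3.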

How the results depend on the processing

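Of 189 counts over members recomputed under an alternative, 186 stayed within 1.5 times the reported value. Among them are the counts of members called, which were 0 in all 13 tests and had little room to move. The number of members highest in n01-OSNs, 7 as reported, was 3 when n01-OSNs had to be highest in each library, ranged from 6 to 8 as each library was left out, and was 6 without the 3 cells holding 7 or more members, an alternative chosen after seeing the data. Members called in n01-OSNs for trained against occluded, 0 as reported, numbered 1 (Gng13) with the replicate block, where its log2 fold change was −0.66 with an adjusted p of 0.0165 (edgeR), and ranged from 0 to 1 as each library was left out. The replicate block changed no other call. Replicate numbers mark the sex of the pool, and same-numbered n01-OSNs libraries deviated together with correlations of 0.0577, 0.112 and 0.0616. The 3 correlations were 0.372, 0.334 and 0.249 in nonneuronal cells and 0.184, 0.198 and 0.149 in n04-Immature, where the numbers thus paired the libraries, and in n03-GC-1, n05-PGC-2 and n07-GC-2 the lowest was under 0.1. Leaving out 1 library leaves a lone sample that is assumed to vary like the rest. Signs turned for 3 members, none called, in n01-OSNs under occlusion. Omp became −0.053 with no filter, Stoml3 0.13 in N5 cells alone, and as each library was left out Omp ranged from −0.060 to 0.16, Stoml3 from −0.21 to 0.17 and Gnal from −0.45 to 1.13. All n01-OSNs cells had at least 500 UMIs, so that alternative repeated the reported values. In nonneuronal cells the members above prediction numbered 2 to 4, and 3 in bulb neurons under every alternative run. Members with under 10 UMIs in n01-OSNs are limited by their counts, and whether depth or a low level gave these counts was not tested.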
